A study of Rattus norvegicus with 12 samples.

Results

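Autophagy delivers parts of the cytoplasm to the lysosome for breakdown, and 42 genes of this pathway, from the kinases that start it to the hydrolases that finish it, are described here across all libraries of the series. Members were the rows of the expression table whose gene name was one of 42 symbols. Each symbol had 1 row, out of 18344 rows in the whole table. The unit is FPKM, fragments scaled to transcript length and library size, which allows levels of different genes to be compared per length. One member, Ctsz (the gene of cathepsin Z), stayed under 1 FPKM in every library and was not tested, so the tests cover 41 members.

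Poly-A RNA had been sequenced from 12 libraries of rat cells that had gone through oxygen-glucose deprivation followed by reperfusion (OGD/R), a culture model of ischaemia, with 3 libraries in each of 4 groups. The groups are named for what was added to OGD/R: NC, CIRBP, si-NC and si-CIRBP. OGD/R was common to all 4 groups, and no library without it was used here. The sources used here do not give how CIRBP, NC and the si reagents were delivered, nor doses or times. The labels name the source H9C2, a line of rat heart myoblasts, yet the cell line field reads rat astrocytes. The comparisons were CIRBP against NC and si-CIRBP against si-NC, which ask how expression under OGD/R responds to treatments named for Cirbp, an RNA-binding protein induced by cold, together with the difference between these effects and the contrast of the control groups. The labels call the libraries biological replicates without naming separate cultures, so p-values measure the spread between these libraries, which may be technical.

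Autophagy starts when the ULK1 kinase complex activates a lipid kinase complex built around beclin 1 and VPS34, with ATG14 or UVRAG as its targeting subunit, on membrane supplied by ATG9 vesicles and ATG2. Ubiquitin-like conjugation then joins ATG12 to ATG5 and attaches ATG8 proteins to the growing membrane, where receptors such as p62, NBR1 and optineurin bind them and bring in cargo. The autophagosome fuses with the lysosome, whose cathepsins and other hydrolases digest the contents. TFEB and TFE3, held in the cytoplasm by mTORC1 signalling at the lysosome, are transcription factors that bind the CLEAR element, which contains the E-box CACGTG, in promoters of many of these genes. In heart muscle, autophagy is known to respond to ischaemia and to reperfusion.

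Since both of these factors are among the members, the promoters were searched for CACGTG, a palindrome, so both strands are covered. No other motif was searched. The search took the 300 bases from 250 before to 50 after 1 RefSeq start per gene, in the rat build GRCr8. Any other start of a gene was left out. A promoter was matched for 35 of the 42 members. The letters CACGTG were present in 7 of these 35 (20.0%), against 9.15% of the 10493 promoters matched to genes of the expression table and 6.65% of 27457 promoters in all. A match is a description of the letters and not a binding site. The stretches that hold it are shown because these members differ in how they moved, with CACGTG in capitals and 10 bases on each side, 5′ to 3′ on the strand of the gene.
Ctsd, chr1:206968816-206968988, minus strand: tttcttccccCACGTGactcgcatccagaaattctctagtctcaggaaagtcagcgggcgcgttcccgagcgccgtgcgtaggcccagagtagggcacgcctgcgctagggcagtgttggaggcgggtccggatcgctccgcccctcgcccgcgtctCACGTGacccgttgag
Pink1, chr5:155826033-155826121, minus strand: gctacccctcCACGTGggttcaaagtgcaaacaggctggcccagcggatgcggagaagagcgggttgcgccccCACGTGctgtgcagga
Atg3, chr11:69159281-69159329, minus strand: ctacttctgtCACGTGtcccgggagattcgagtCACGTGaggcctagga
Mcoln1, chr12:6358226-6358277, plus strand: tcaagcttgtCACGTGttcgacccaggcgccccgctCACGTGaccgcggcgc
Atg14, chr15:23306794-23306819, minus strand: aacaaaatccCACGTGactggccctg
Lamp1, chr16:83075086-83075256, minus strand: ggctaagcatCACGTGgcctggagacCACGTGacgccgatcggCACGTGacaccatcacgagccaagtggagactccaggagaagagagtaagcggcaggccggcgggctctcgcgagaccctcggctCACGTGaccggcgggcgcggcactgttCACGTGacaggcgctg
Atg5, chr20:49380806-49380831, plus strand: gggcgctggcCACGTGggcgggtgac
Lamp1 held 5 copies, Ctsd, Pink1, Atg3 and Mcoln1 held 2 each, and Atg14 and Atg5 held 1 each. Counting the start base as 1, the copies nearest to a start began at base 5 in Mcoln1 and at base 7 in Atg14. In Ctsd the nearest copy began 10 bases before the start. In CIRBP against NC, 2 of these 7 genes (Ctsd and Pink1) were called higher, 4 (Atg3, Mcoln1, Atg14 and Lamp1) lower, and Atg5 was not called, where 27.9% of all rows tested were called higher and 42.8% lower (70.7% in all), so this count is near that of the table.

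The targeted gene was read first. Cirbp lay at 19.0 to 20.1 FPKM in NC and at 34.3 to 36.5 FPKM in CIRBP, a log2 fold change of 0.83 (SE 0.035, limma adjusted p = 4.92e-06). In the libraries labelled si-CIRBP it lay at 26.5 to 28.6 FPKM, within the 24.2 to 29.0 FPKM of si-NC, so a lower Cirbp mRNA level was not seen there and every direction drawn from that label carries this limit. Depth in absolute terms is unknown from FPKM. Relative to the first NC library it was 0.843 to 1.03, and the summed FPKM were 457775 to 502889. The libraries of the si groups varied more than those of NC and CIRBP: the median SD of a gene on the log2 scale was 0.133 in si-NC and 0.147 in si-CIRBP, against 0.0539 in NC and 0.057 in CIRBP. Markers of the labelled cell types differed between the arms. The summed level of 8 smooth muscle markers was 79.0 to 80.4 FPKM in NC, 94.2 to 97.3 in CIRBP, 205.3 to 1653 in si-NC and 868.3 to 1063 in si-CIRBP. In NC and CIRBP most of this sum was Smtn, with means of 72.0 and 91.6 FPKM. Smtn averaged 74.8 in si-NC and 76.4 in si-CIRBP. Acta2 averaged 1.41 and 1.02 FPKM in NC and CIRBP, and 583 and 557 in si-NC and si-CIRBP. For Tagln these means were 1.80, 0.904, 221 and 183. The 12 skeletal and cardiac muscle markers summed to 6.37 to 7.59 FPKM in NC, 6.92 to 8.53 in CIRBP, 12.6 to 149.9 in si-NC and 33.0 to 236 in si-CIRBP. Of these, Myod1 was at most 0.0819 FPKM in any NC or CIRBP library. It lay at 1.74 to 21.6 FPKM in si-NC and 9.83 to 11.6 in si-CIRBP. Myog was at most 0.124 FPKM in NC and CIRBP, 0.798 to 20.005 in si-NC and 1.48 to 44.8 in si-CIRBP. Genes of this list found in heart muscle did not move alike. Actc1 was at most 0.287 FPKM in any library, whereas Tnnt2 reached 89.9 and Tnnc1 43.5 FPKM, both in si-CIRBP 3. Nkx2-5 was at 0 FPKM in every NC and CIRBP library and reached 1.97 in si-NC 2. Of 8 astrocyte markers 7 had a row, with sums of 181 to 194, 268 to 284, 134 to 185 and 186 to 197 FPKM in NC, CIRBP and the si-NC and si-CIRBP groups. Gfap, the defining one, was between 1.44 and 6.89 FPKM. Macrophages, which are rich in lysosomes, were looked for with 10 markers, of which 3 had a row. Their sum was 11.1 to 16.3 FPKM over all libraries, nearly all of it Cd14, and Csf1r was at or under 0.2 FPKM in each library.

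The members span a wide range of levels. Averaged over the 12 libraries, the most abundant was Ctsb, the cysteine protease cathepsin B, at 398 FPKM, followed by Ctsd (cathepsin D, an aspartic protease) at 313, Npc2 (the soluble cholesterol carrier of the lysosome) at 292, Gabarap at 283 and Sqstm1 (the receptor p62) at 226. At the other end were Atg14 at 3.98 FPKM, Atg10 at 2.45 and Ctsz at 0.193. The summed level of the members was 0.647% ± 0.00400 (SD, n = 3) of all FPKM in NC, 0.566% ± 0.00889 in CIRBP, 0.675% ± 0.0654 in si-NC and 0.638% ± 0.0427 in si-CIRBP. The 3 CIRBP libraries all lay under the 3 NC libraries, and the ranges of the si groups overlapped. In bulk RNA, fewer cells of a type and less RNA per cell cannot be told apart.

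**Figure D1:**
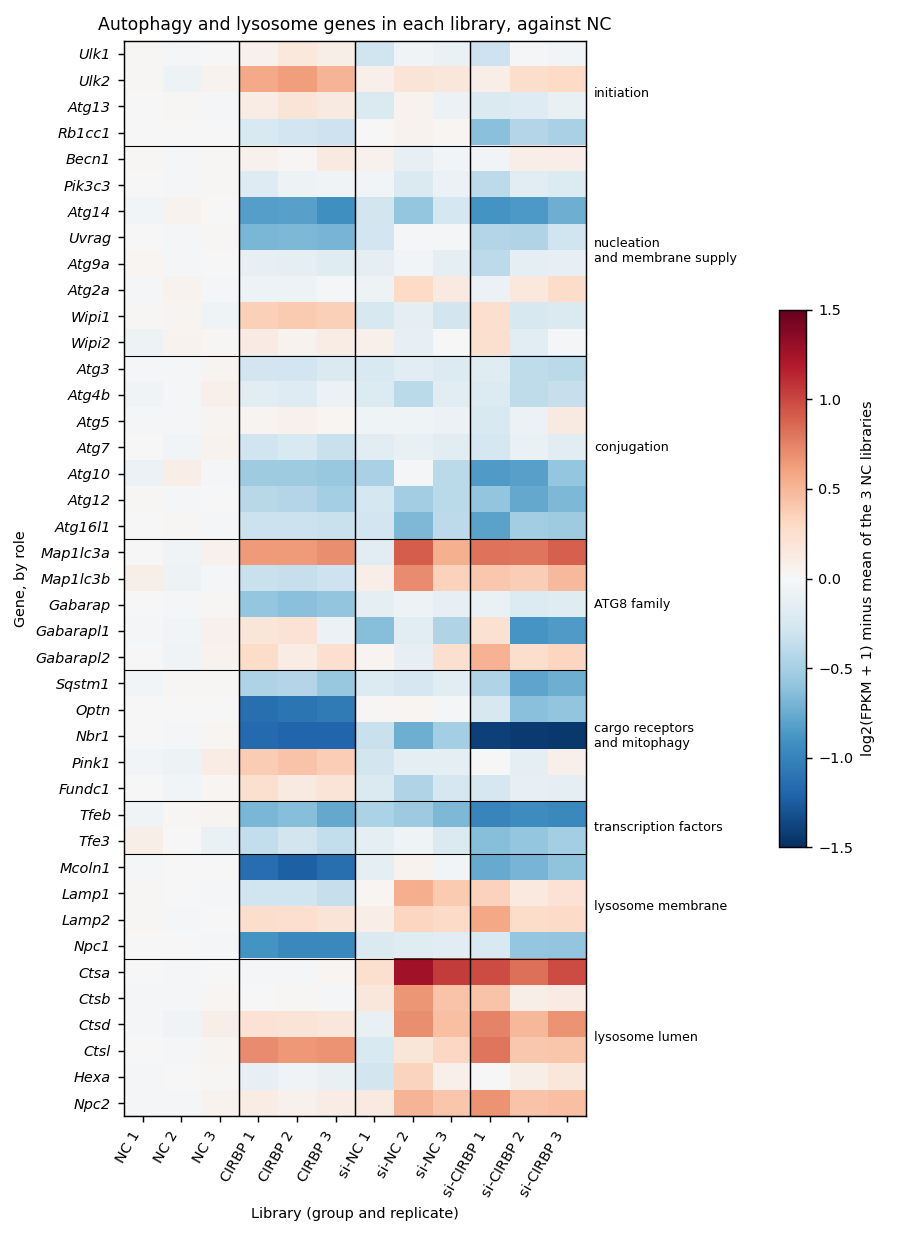
Each row is one of the 41 tested members, grouped by role, and each column a library. Colour gives log2(FPKM + 1) minus the mean of the 3 NC libraries (red higher, blue lower), and the 3 CIRBP columns are alike while si-NC 1 differs from the other si-NC libraries in the lysosome lumen genes.

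CIRBP libraries held less mRNA of the cargo receptors Nbr1, Optn and Sqstm1, of both transcription factors, of the lysosomal membrane genes Mcoln1, Npc1 and Lamp1 and of 6 of 7 conjugation genes than NC libraries. They held more of Ulk2, Map1lc3a and Ctsl. With limma's moderated test on log2(FPKM + 1), with Benjamini-Hochberg adjustment across the 14257 rows tested and called at an adjusted p under 0.05, 11 of 41 members rose, 21 fell and 9 were not called. Of all rows tested 70.7% were called, 27.9% higher and 42.8% lower, so the 78% called among the members is near the share of the table. Counts of single roles given below stand beside the same shares. Counting only calls of at least 0.5 in absolute log2 fold change, 3 members rose and 9 fell, where 10.8% of all rows rose and 20.3% fell. The median log2 fold change was -0.11 over the members and -0.083 over all rows. Values printed with a standard error (SE) are log2 fold changes on the log2(FPKM + 1) scale, or differences between such fold changes where so named. The split depends on how libraries are scaled. With every library scaled to 1 median, the median over all rows moved to 0.025 and 18 members were called higher and 18 lower. With scaling by median ratios the median moved to 0.0075 and the split was 17 and 18. Of all rows, 70.8% and 70.9% were called under these scalings. Their split by direction is not given here, so these member counts cannot be set against it. The 3 CIRBP values all lay above the 3 NC values for 13 members and below them for 22, against 29.7% and 45% of all rows.

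si-CIRBP against si-NC gave 5 calls among the members, all lower in the libraries labelled si-CIRBP: Rb1cc1, Nbr1, Tfeb, Tfe3 and Mcoln1. By limma no member was called higher, and 2 had an unadjusted p under 0.05 and a higher level. The share called was 12.2%, against 8.1% of all rows (1.87% higher and 6.24% lower). These 5 were also lower in CIRBP than in NC, where Cirbp mRNA was higher and 21 of 41 members fell. At 0.5 or more, 0 were higher and 3 lower, where 1.18% and 4.48% of all rows were. The median log2 fold change was -0.054 over the members and -0.043 over all rows. Each of these calls depended on single libraries. Without si-NC 3, si-CIRBP 2 or si-CIRBP 3 no member was called (with 0.526%, 0.659% and 0.659% of all rows called), without si-NC 1 or si-NC 2 there were 2, and without si-CIRBP 1 there were 8. The number of members below all 3 si-NC values was 12 and the number above was 2, against 24.3% and 11.7% of all rows.

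The effects of the treatments differed between the arms for 7 members in a test of the difference itself (CIRBP minus NC, minus si-CIRBP minus si-NC, in limma's fit of all 12 libraries). In the CIRBP arm the effect was more positive for Ulk2, less negative for Rb1cc1, and more negative for Uvrag, Gabarap, Optn, Mcoln1 and Npc1. Apart from Rb1cc1 and Uvrag these calls were kept in all 20 alternatives tried. In simulated data with 200 changed genes, unchanged genes made up 35.4% of the calls of this test. That simulation gave 237 calls against 2535 in the data, so this share does not carry over to the 7. The 7 are 17.1% of the members, against 17.8% of all rows (6.87% higher and 10.9% lower). At 0.5 or more, 0 were higher and 4 lower, where 4.21% and 6.48% of all rows were.

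The control groups were not alike. Against NC, the si-NC libraries had 4 members called higher (Lamp2, Ctsa, Ctsb and Npc2) and 12 lower, 39% of those tested, where 31.6% of all rows were called (10.2% higher and 21.4% lower). The 12 lower were Atg14, Wipi1, Atg3, Atg4b, Atg12, Atg16l1, Gabarapl1, Sqstm1, Nbr1, Fundc1, Tfeb and Npc1. Ctsa was the member higher by at least 0.5, and Nbr1 and Tfeb were lower by as much, where 4.27% of all rows rose and 6.98% fell to that extent. The si-NC values all lay above the NC values for 7 members and below for 19, against 19.1% and 34% of all rows. With any 1 NC library left out only Tfeb was still called. Without si-NC 3 there were 2 calls, without si-NC 2 there were 15, and without si-NC 1 there were 21. The arms differ in their table columns too, since those of NC and CIRBP carry a prefix that the labels do not explain, so control and arm cannot be told apart.

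**Figure D2:**
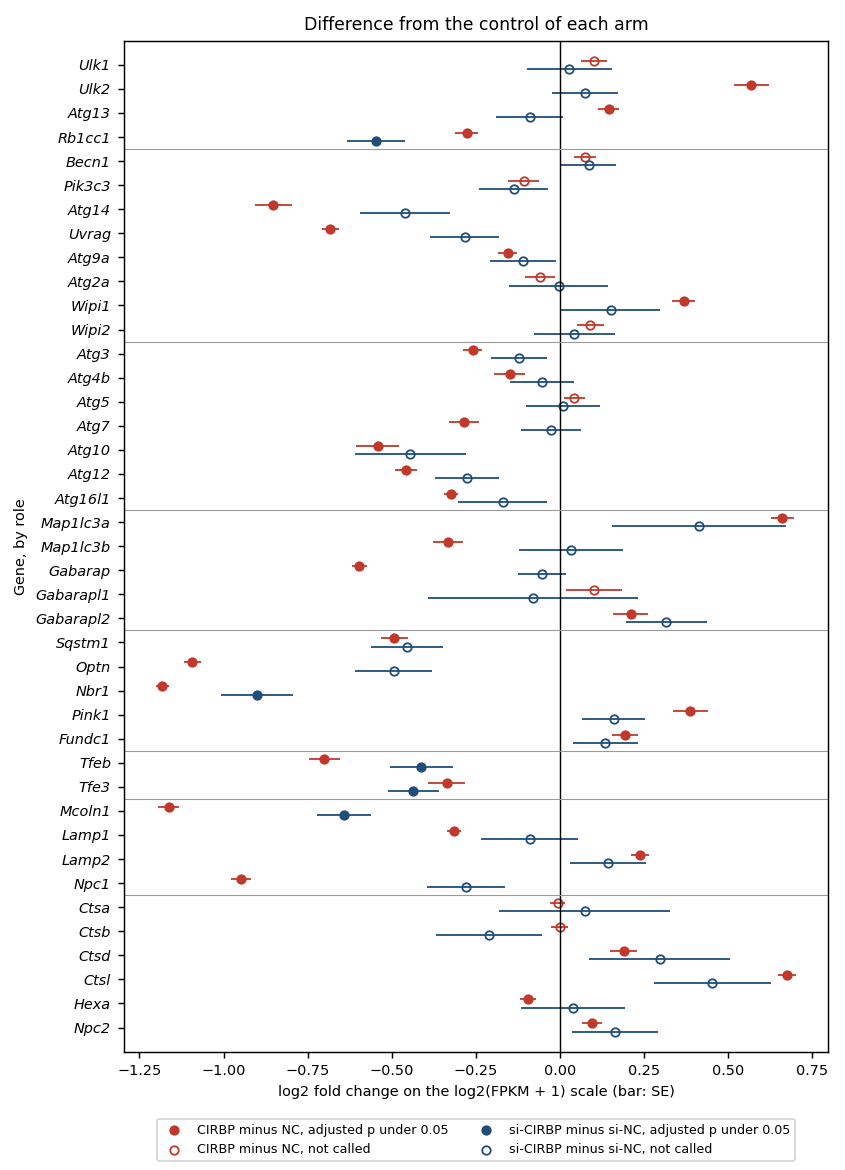
Log2 fold change of each tested member in CIRBP against NC (red) and si-CIRBP against si-NC (blue), with bars of 1 standard error. Filled points have an adjusted p under 0.05: 32 red and 5 blue, and the blue bars are longer for most members.

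Initiation genes moved in different directions. Ulk2, a kinase of the ULK family that can act beside ULK1, stood at 8.30, 7.70 and 8.503 FPKM in the NC libraries and at 12.6, 13.2 and 12.0 in CIRBP. All CIRBP values lay above all NC values. The log2 fold change was 0.57 (SE 0.052, adjusted p = 0.000111), and the CIRBP mean was 1.54 times the NC mean. In si-NC it was at 8.64, 9.44 and 9.33 FPKM and in the libraries labelled si-CIRBP at 8.82, 10.01 and 10.2, ranges that overlap, with a log2 fold change of 0.075 (SE 0.098, adjusted p = 0.667). Ulk2 was 1 of the 7 members whose effects differed, by 0.49 (SE 0.10, adjusted p = 0.00775).

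Rb1cc1 encodes FIP200, the scaffold of the ULK1 complex. It lay at 15.6, 15.5 and 15.5 FPKM in NC, 13.1, 12.5 and 12.3 in CIRBP, 15.6, 16.2 and 15.8 in si-NC and 9.73, 11.2 and 10.8 in si-CIRBP. Both treated groups lay wholly below their controls. The log2 fold change was -0.28 (SE 0.034, adjusted p = 0.000429) for CIRBP and -0.55 (SE 0.086, adjusted p = 0.0215) for si-CIRBP, and with single libraries left out the latter call was kept only without si-CIRBP 1. The difference between these effects was 0.27 (SE 0.080, adjusted p = 0.0408), and it missed the threshold without NC 1, 2 or 3, CIRBP 1, 2 or 3, si-NC 2, si-NC 3 or si-CIRBP 3 (adjusted p up to 0.11). Ulk1, the kinase itself, averaged 9.20 ± 0.101, 9.95 ± 0.369, 8.22 ± 0.811 and 8.41 ± 1.02 FPKM (order here and in later lists of 4 means: NC, CIRBP, then si-NC and si-CIRBP; SD, n = 3) and was called in no comparison, with a log2 fold change of 0.10 (SE 0.039, adjusted p = 0.0573) in CIRBP against NC. Atg13, its regulatory partner, averaged 14.4 ± 0.202, 16.1 ± 0.471, 13.6 ± 1.36 and 12.7 ± 0.549 FPKM and rose in CIRBP by 0.14 (SE 0.032, adjusted p = 0.00683). Of the 4 initiation genes 2 were thus called higher in CIRBP and 1 lower. Under either other scaling 3 were higher and 1 lower, with Ulk1 called at a log2 fold change of 0.24 (1 median, adjusted p = 0.00193) and 0.22 (median ratios, adjusted p = 0.0033).

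Among the nucleation and membrane supply genes the targeting subunits of the lipid kinase fell, and the core subunits were not called as deposited. Becn1 (beclin 1) averaged 60.3 ± 0.956, 63.6 ± 2.53, 59.0 ± 4.02 and 62.7 ± 3.63 FPKM, and Pik3c3 (the kinase VPS34) averaged 12.3 ± 0.182, 11.4 ± 0.633, 11.3 ± 0.754 and 10.2 ± 0.912. Their log2 fold changes in CIRBP were 0.074 (SE 0.032, adjusted p = 0.0835) and -0.11 (SE 0.046, adjusted p = 0.0794). Becn1 was called higher under both other scalings, at log2 fold changes of 0.22 and 0.20 and an adjusted p of 0.000947 and 0.00113. It was also called with a replicate block (adjusted p = 0.0472) and without CIRBP 2 (adjusted p = 0.0295), and Pik3c3 changed sign under both scalings without being called. Atg14, which directs the kinase to the site where autophagosomes form, was at 5.66, 6.14 and 5.84 FPKM in NC and at 2.89, 2.91 and 2.64 in CIRBP. The groups are far apart relative to their spread. The CIRBP mean was 0.478 of the NC mean, with a log2 fold change of -0.85 (SE 0.055, adjusted p = 2.46e-05). In si-NC it was at 4.70, 3.59 and 4.74 FPKM and in si-CIRBP at 2.69, 2.77 and 3.14, all below si-NC, with a log2 fold change of -0.46 (SE 0.13, adjusted p = 0.0859). Atg14 was also lower in si-NC than in NC, with a log2 fold change of -0.37 (SE 0.11, adjusted p = 0.041).

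Uvrag, the alternative targeting subunit that serves later steps and endosomal traffic, was at 27.8, 27.0 and 28.0 FPKM in NC and 16.8, 16.98 and 16.7 in CIRBP. These groups did not overlap, and Uvrag fell by 0.68 on the log2 scale (SE 0.025, limma adjusted p = 3.01e-06). It stood at 22.4, 27.1 and 27.0 in si-NC and 20.1, 19.9 and 22.2 in si-CIRBP, where the lowest si-NC value is just above the highest si-CIRBP value and the log2 fold change was -0.28 (SE 0.10, adjusted p = 0.133). The effects differed by -0.40 (SE 0.10, adjusted p = 0.0234). Without NC 1, NC 3, any 1 of the CIRBP libraries or si-CIRBP 3 this difference missed the threshold (adjusted p up to 0.0587), as it did with libraries scaled by median ratios (adjusted p = 0.0601).

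Of the membrane suppliers, Atg9a, a lipid scramblase of the seed vesicles, averaged 24.9 ± 0.608, 22.2 ± 0.483, 23.0 ± 0.921 and 21.4 ± 2.24 FPKM over the 4 groups and fell in CIRBP with a log2 fold change of -0.16 (SE 0.029, adjusted p = 0.00321), a call lost under both other scalings. Atg2a, a lipid transfer protein, averaged 7.03 ± 0.259, 6.71 ± 0.174, 7.76 ± 1.12 and 7.73 ± 1.09 and was not called. Wipi1 and Wipi2 bind the phosphoinositide made by the kinase. Wipi1 averaged 24.5 ± 1.00, 31.8 ± 0.462, 20.9 ± 1.08 and 23.6 ± 4.99 FPKM and rose in CIRBP by 0.37 (SE 0.034, adjusted p = 0.000118), and it was lower in si-NC than in NC with a log2 fold change of -0.22 (SE 0.057, adjusted p = 0.032). Wipi2 averaged 29.3 ± 1.44, 31.2 ± 0.861, 28.9 ± 2.12 and 29.97 ± 4.45 and was not called, with a log2 fold change of 0.091 (SE 0.041, adjusted p = 0.0917) in CIRBP. Of the 8 genes of this role, 1 rose and 3 fell in CIRBP, and with libraries scaled to 1 median 3 rose and 2 fell.

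Conjugation genes fell in CIRBP in 6 of 7 cases, with a median log2 fold change of -0.28, where 42.8% of all rows were called lower. Under either other scaling 5 of the 7 were called lower and 1 higher. Atg10, the E2-like enzyme that acts on ATG12, was the lowest of them in level: 3.17, 3.76 and 3.40 FPKM in NC, 2.08, 2.07 and 2.00 in CIRBP, 2.18, 3.35 and 2.36 in si-NC and 1.45, 1.53 and 1.97 in si-CIRBP. CIRBP values were nearly alike and all below NC, whereas si-NC values were spread and si-NC 2 stood apart from the other 2. The log2 fold change was -0.54 (SE 0.064, adjusted p = 0.000356) for CIRBP and -0.44 (SE 0.16, adjusted p = 0.142) for si-CIRBP. The pseudocount of 1 shrinks changes at such levels, and with a pseudocount of 0.1 the CIRBP value was -0.72.

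Atg12, the ubiquitin-like protein itself, averaged 38.2 ± 0.782, 27.6 ± 1.00, 28.9 ± 2.64 and 23.6 ± 1.49 FPKM, with a log2 fold change of -0.46 (SE 0.033, adjusted p = 3.73e-05) in CIRBP. It was also lower in si-NC than in NC, with a log2 fold change of -0.40 (SE 0.071, adjusted p = 0.0112). Atg16l1, which carries the conjugate to the membrane, averaged 33.4 ± 0.482, 26.5 ± 0.167, 24.3 ± 3.42 and 21.5 ± 2.36 FPKM, with a log2 fold change of -0.32 (SE 0.021, adjusted p = 2.47e-05) in CIRBP and -0.45 (SE 0.10, adjusted p = 0.0207) between the controls. Both genes had their lowest group mean in si-CIRBP. Atg7 (the shared E1-like enzyme) averaged 10.8 ± 0.368, 8.70 ± 0.355, 9.68 ± 0.197 and 9.51 ± 0.608 FPKM and fell in CIRBP with a log2 fold change of -0.28 (SE 0.045, adjusted p = 0.00144). Atg3 (the E2-like enzyme for ATG8 proteins) averaged 41.6 ± 0.905, 34.6 ± 1.01, 36.1 ± 0.773 and 33.2 ± 2.94, with a log2 fold change of -0.26 (SE 0.029, adjusted p = 0.00029) in CIRBP and -0.20 (SE 0.042, adjusted p = 0.0178) between the controls. Atg4b, the protease that trims ATG8 proteins, averaged 29.8 ± 1.56, 26.7 ± 1.05, 24.7 ± 2.15 and 23.8 ± 1.63 FPKM and was called lower in CIRBP with a log2 fold change of -0.15 (SE 0.046, adjusted p = 0.0262), but not without NC 3, CIRBP 1 or CIRBP 2, nor under the other scalings (adjusted p up to 0.968). Atg5 averaged 15.2 ± 0.439, 15.6 ± 0.193, 14.4 ± 0.154 and 14.6 ± 2.02 FPKM and was the conjugation gene that was not called, with a log2 fold change of 0.043 (SE 0.032, adjusted p = 0.269).

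The ATG8 family did not move as one. These small proteins are the lipid-anchored tags of the autophagosome, and close copies exist in the genome. The sources used here do not say how reads shared between copies were counted, which leaves each of the 5 uncertain on its own. Gabarap, by far the most abundant, was at 326, 321 and 328 FPKM in NC and at 217, 210.5 and 216 in CIRBP. No value overlapped and the fall was the largest of the family, -0.60 (SE 0.022, adjusted p = 3.26e-06). Its values in si-NC were 296, 308 and 299.5 and in si-CIRBP 304, 281 and 286, which overlap, with a log2 fold change of -0.053 (SE 0.072, adjusted p = 0.678). The difference between the effects was -0.54 (SE 0.062, adjusted p = 0.000539).

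Map1lc3a, an LC3 gene, was at 24.7, 23.9 and 25.9 FPKM in NC and 39.3, 39.3 and 40.9 in CIRBP, all higher, and rose by 0.66 (SE 0.035, adjusted p = 1.11e-05). In si-NC it was at 21.9, 47.5 and 36.5 FPKM and in si-CIRBP at 44.3, 44.2 and 47.2. One si-NC library lay above and the others below every si-CIRBP library, and the log2 fold change was 0.41 (SE 0.26, adjusted p = 0.355). Map1lc3b, the LC3 gene most used as an autophagy marker, averaged 53.9 ± 3.30, 42.6 ± 0.706, 71.7 ± 15.9 and 72.3 ± 3.02 FPKM and fell in CIRBP with a log2 fold change of -0.33 (SE 0.045, adjusted p = 0.000683). Gabarapl2 averaged 30.5 ± 1.16, 35.5 ± 2.23, 31.8 ± 4.12 and 39.8 ± 3.98 and rose by 0.21 (SE 0.052, adjusted p = 0.0106). Gabarapl1 averaged 45.5 ± 1.88, 49.1 ± 5.52, 34.1 ± 5.74 and 34.2 ± 16.8 and was not called in CIRBP, with a log2 fold change of 0.10 (SE 0.083, adjusted p = 0.313), and in si-CIRBP it was at 53.6, 24.2 and 24.8 FPKM, with si-CIRBP 1 far above the other libraries. Summed over the family, the level was 479.7 FPKM ± 9.26 in NC, 382 ± 5.48 in CIRBP, 474 ± 38.4 in si-NC and 482 ± 32.1 in si-CIRBP (SD, n = 3). Gabarap made up most of this sum in every group.

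The cargo receptor Nbr1 and the channel gene Mcoln1, described further on, fell most among the members in CIRBP, Nbr1 more on the log2(FPKM + 1) scale and Mcoln1 more by the ratio of means. Nbr1, a receptor for ubiquitinated cargo, was at 162, 161 and 166 FPKM in NC and at 71.8, 71.0 and 70.6 in CIRBP. The groups do not overlap, and the CIRBP mean was 0.437 of the NC mean. The log2 fold change was -1.18 (SE 0.020, adjusted p = 5.92e-07). In si-NC it was at 129, 97.5 and 114 FPKM and in si-CIRBP at 61.1, 59.3 and 59.2. The si-CIRBP libraries were again all lower and nearly alike, with a log2 fold change of -0.90 (SE 0.11, adjusted p = 0.0115), a call lost without si-NC 3, si-CIRBP 2 or si-CIRBP 3 (adjusted p up to 0.077). The control groups themselves differed, with a log2 fold change of -0.53 (SE 0.099, adjusted p = 0.0133) for si-NC against NC. Nbr1 was thus lower in both treated groups than in their controls, and the effects were not called as different (-0.28, SE 0.11, adjusted p = 0.112).

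Optn encodes optineurin, a receptor in the clearance of mitochondria and bacteria. It was at 43.7, 43.6 and 44.1 FPKM in NC and at 19.5, 20.1 and 20.5 in CIRBP. Again no values overlapped, and the CIRBP mean was 0.457 of the NC mean, a log2 fold change of -1.09 (SE 0.025, adjusted p = 1.01e-06). Its values were 44.5, 44.7 and 43.1 FPKM in si-NC and 36.9, 28.0 and 28.8 in si-CIRBP, all lower but with si-CIRBP 1 nearer to si-NC than the other 2. The log2 fold change there was -0.49 (SE 0.11, adjusted p = 0.0508), which missed the threshold. The effects differed by -0.60 (SE 0.12, adjusted p = 0.00768), and the control groups were alike at 43.8 ± 0.267 and 44.1 ± 0.887 FPKM (SD, n = 3).

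Sqstm1 (p62), the receptor whose protein is itself degraded by autophagy, averaged 281 ± 6.81, 199.6 ± 9.69, 244 ± 8.18 and 178 ± 23.6 FPKM. It fell in CIRBP with a log2 fold change of -0.49 (SE 0.040, adjusted p = 6.86e-05), and in si-CIRBP the value was -0.45 (SE 0.11, adjusted p = 0.0521). Pink1 and Fundc1 rose in CIRBP, while Optn, which also acts in mitophagy, fell. Pink1, the kinase that marks damaged mitochondria, averaged 17.3 ± 1.23, 23.0 ± 0.504, 15.1 ± 0.871 and 17.04 ± 1.40 FPKM and rose by 0.39 (SE 0.051, adjusted p = 0.000624). Fundc1, a receptor on the outer mitochondrial membrane, averaged 17.3 ± 0.442, 20.0 ± 0.777, 13.9 ± 1.30 and 15.3 ± 0.786 FPKM and rose by 0.19 (SE 0.037, adjusted p = 0.0036). Of the 5 genes of this role, 3 fell and 2 rose in CIRBP under all 3 scalings, and the summed level was 522 FPKM ± 9.57 in NC, 334 ± 9.89 in CIRBP, 430.0 ± 21.2 in si-NC and 302 ± 29.1 in si-CIRBP (SD, n = 3).

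**Figure D3:**
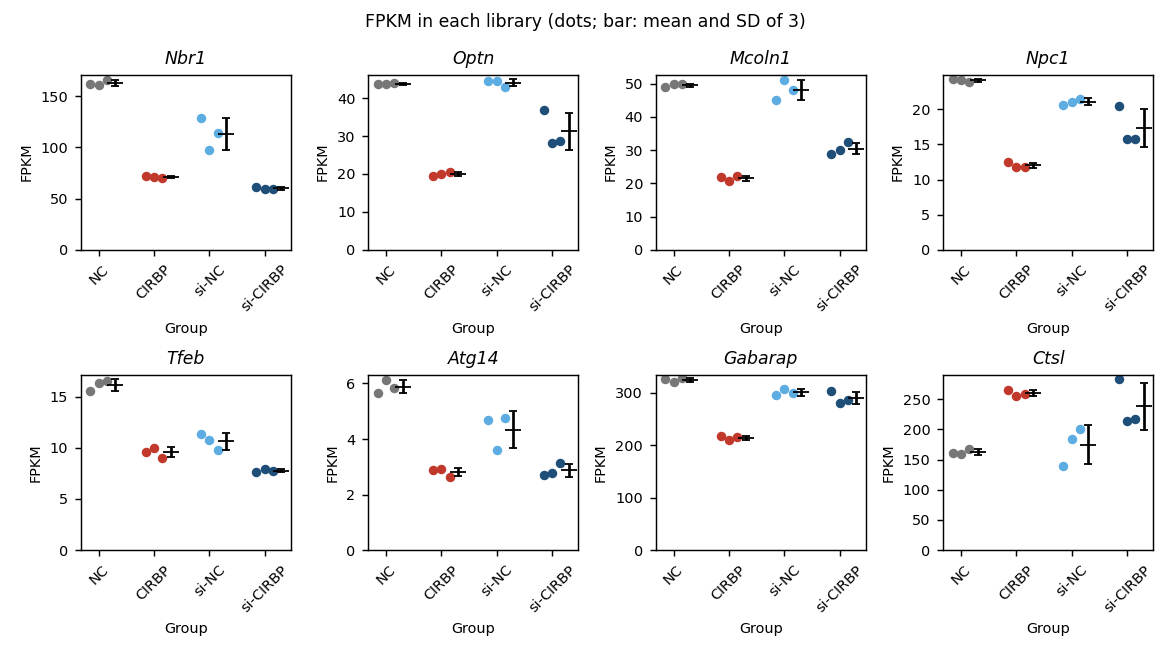
FPKM of 8 members in each library (dots, 3 a group), with the mean and SD of each group beside them, and each axis from 0. Nbr1, Optn, Mcoln1, Npc1, Tfeb, Atg14 and Gabarap lie lower in CIRBP than in NC without overlap and Ctsl higher. For these members except Gabarap and Ctsl the si-CIRBP libraries also lie below si-NC.

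Both transcription factors had less mRNA in each treated group. Tfeb was at 15.5, 16.3 and 16.6 FPKM in NC, 9.61, 10.001 and 9.05 in CIRBP, 11.4, 10.8 and 9.77 in si-NC and 7.60, 7.88 and 7.73 in si-CIRBP. CIRBP lay wholly below NC, si-CIRBP wholly below si-NC, and si-NC wholly below NC. The log2 fold changes were -0.70 (SE 0.047, adjusted p = 2.74e-05) for CIRBP, -0.41 (SE 0.094, adjusted p = 0.049) for si-CIRBP and -0.56 (SE 0.067, adjusted p = 0.00416) for si-NC against NC. The si-CIRBP call was the weakest of the 5, kept in 5 of 14 alternatives. Tfe3 averaged 39.2 ± 2.61, 30.8 ± 1.25, 35.4 ± 1.94 and 25.9 ± 1.25 FPKM, with a log2 fold change of -0.34 (SE 0.054, adjusted p = 0.00154) for CIRBP and -0.44 (SE 0.077, adjusted p = 0.0276) for si-CIRBP, the latter kept in 7 of 14 alternatives. With single libraries left out, the si-CIRBP calls of both genes were kept only without si-CIRBP 1 (adjusted p up to 0.159 for Tfeb and 0.109 for Tfe3). These are mRNA levels, and TFEB and TFE3 are mainly controlled by where the protein is in the cell, which these data do not measure.

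In the lysosomal membrane the genes split 3 to 1 in CIRBP. Mcoln1 encodes mucolipin 1, the calcium channel whose opening activates TFEB. It was at 48.9, 49.8 and 49.8 FPKM in NC and 21.9, 20.6 and 22.1 in CIRBP. The groups were separated by more than the whole range within either, and the log2 fold change was -1.16 (SE 0.031, adjusted p = 1.29e-06), and the CIRBP mean was 0.435 of the NC mean. In si-NC it was at 45.1, 51.2 and 48.2 FPKM and in si-CIRBP at 29.0, 30.2 and 32.3, again without overlap, with a log2 fold change of -0.64 (SE 0.080, adjusted p = 0.0123), lost without si-NC 3, si-CIRBP 2 or si-CIRBP 3 (adjusted p up to 0.085). NC and si-NC were alike here. Mcoln1 therefore moved in the same direction in both arms, and the CIRBP effect was the more negative, the difference being -0.52 (SE 0.082, adjusted p = 0.00254).

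Npc1, which exports cholesterol from the lysosome, was at 24.3, 24.2 and 23.9 FPKM in NC and 12.5, 11.8 and 11.8 in CIRBP. The CIRBP mean was 0.499 of the NC mean, a log2 fold change of -0.95 (SE 0.030, adjusted p = 2.09e-06). Values of 20.6, 21.1 and 21.5 in si-NC and 20.4, 15.8 and 15.7 in si-CIRBP put si-CIRBP 1 just under the controls and the other 2 well below them, with a log2 fold change of -0.28 (SE 0.12, adjusted p = 0.182). The difference of the effects was -0.67 (SE 0.12, adjusted p = 0.00468), the largest of any member. Lamp1, the abundant membrane glycoprotein, averaged 169 ± 2.40, 136 ± 2.27, 214 ± 38.5 and 199.6 ± 14.4 FPKM and fell in CIRBP with a log2 fold change of -0.32 (SE 0.021, adjusted p = 2.94e-05). Lamp2, which acts in chaperone-mediated autophagy and in fusion, averaged 107 ± 1.43, 126 ± 3.44, 126 ± 10.4 and 140.0 ± 17.3 FPKM and rose by 0.24 (SE 0.025, adjusted p = 0.000226). It was also higher in si-NC than in NC, by 0.24 (SE 0.067, adjusted p = 0.0408).

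Of the 6 tested genes of the lysosome lumen 3 were called higher in CIRBP and 1 lower. Ctsl, the cysteine protease cathepsin L, was at 161, 159 and 167 FPKM in NC and 265, 256 and 259 in CIRBP, all higher. The log2 fold change was 0.68 (SE 0.028, adjusted p = 4.56e-06), and the CIRBP mean was 1.60 times the NC mean. In si-NC it was at 139, 184 and 201 FPKM and in si-CIRBP at 283, 215 and 217, also all higher, and with the spread in both groups the value of 0.45 (SE 0.17, adjusted p = 0.155) was not called. Ctsd averaged 251 ± 12.8, 286 ± 4.93, 326 ± 88.6 and 391 ± 33.5 FPKM and rose in CIRBP by 0.19 (SE 0.040, adjusted p = 0.00528). Npc2 averaged 244 ± 8.16, 260.3 ± 3.97, 313 ± 41.9 and 350.0 ± 34.2 FPKM and was called higher with a log2 fold change of 0.095 (SE 0.030, adjusted p = 0.0277), a call lost without NC 1, NC 2, CIRBP 1 or CIRBP 3 (adjusted p up to 0.092) and, among all alternatives, at an adjusted p of up to 0.434.

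Ctsb averaged 352 ± 7.39, 352 ± 5.75, 476 ± 81.1 and 410.1 ± 54.5 FPKM and its means in NC and CIRBP differed by less than the spread of either, with a log2 fold change of -0.00020 (SE 0.026, adjusted p = 0.996). Ctsa, the carboxypeptidase that protects sialidase and galactosidase, was at 75.6, 74.1 and 75.3 FPKM in NC and 74.2, 73.3 and 76.5 in CIRBP, which overlap, with a log2 fold change of -0.0069 (SE 0.022, adjusted p = 0.803). Hexa, a hexosaminidase subunit, averaged 81.5 ± 1.17, 76.2 ± 1.80, 85.2 ± 17.8 and 86.3 ± 5.27 FPKM and was called lower with a log2 fold change of -0.096 (SE 0.024, adjusted p = 0.0111). With libraries scaled to 1 median the values of Ctsa, Ctsb and Hexa were 0.14, 0.15 and 0.055 instead, and by median ratios 0.12, 0.13 and 0.031. Under either scaling 5 of the 6 tested genes of this role were then called higher and none lower, and Hexa was not called. Ctsz averaged 0.261 ± 0.143, 0.252 ± 0.111, 0.136 ± 0.0745 and 0.122 ± 0.0274 FPKM, too low to compare.

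The summed level of the lumen genes was 1165 FPKM ± 34.2 in NC, 1309 ± 11.1 in CIRBP, 1518 ± 301 in si-NC and 1620 ± 157 in si-CIRBP (SD, n = 3). All CIRBP sums lay above all NC sums, and si-NC 1, at 1190 FPKM, lay within the range of NC. Ctsa differed most between the control groups: 89.1, 181 and 156 FPKM in si-NC, against 75.6, 74.1 and 75.3 in NC. All si-NC values lay above NC, si-NC 1 only by a little, and the log2 fold change was 0.85 (SE 0.25, adjusted p = 0.0444), lost without any 1 NC library, si-NC 2 or si-NC 3 (adjusted p up to 0.134). In si-CIRBP, Ctsa was at 148, 133 and 148 FPKM, within the range of si-NC.

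Within si-NC the summed lumen genes and the summed muscle markers had the same order, and within si-CIRBP they did not. The summed smooth muscle markers were 205.3, 1653 and 1300 FPKM in si-NC 1, 2 and 3, and the summed lumen genes were lowest in si-NC 1 and highest in si-NC 2 as well. In si-CIRBP 1, 2 and 3 the smooth muscle markers summed to 868.3, 898.5 and 1063 FPKM and the lumen genes to 1795, 1492 and 1573, highest where the markers were lowest. Of the 41 tested members, 21 (51.2%) were lowest in si-NC 1 and highest in si-NC 2, against 20.0% of all rows. They include Map1lc3a, Map1lc3b, Lamp1, Lamp2 and all tested lumen genes except Ctsl. Macrophage markers stayed at 14.9 to 16.3 FPKM in the same libraries. The part of muscle-like RNA in these levels was not tested.

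**Figure D4:**
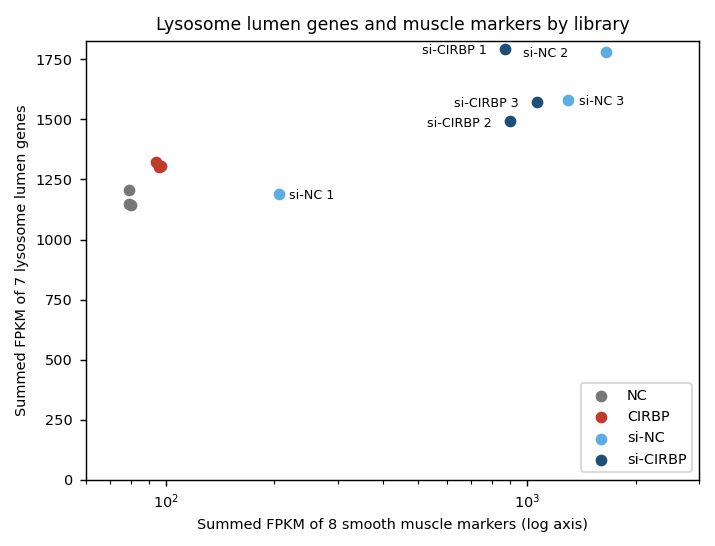
Each point is a library: summed FPKM of the 7 lysosome lumen genes (vertical, from 0) against summed FPKM of 8 smooth muscle markers (horizontal, log axis), coloured by group. NC and CIRBP form tight groups at the left, si-NC 1 lies at 205.3 FPKM of muscle markers and the other si libraries at 868.3 to 1653. In NC and CIRBP most of the marker sum is Smtn.

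The library si-CIRBP 1 also stood apart from si-CIRBP 2 and 3. Of the tested members 18 were highest and 18 lowest in it (43.9% each), shares near those of all rows (41.7% and 45.6%). Gabarapl1, Wipi1 and Ctsl were higher in it than in the mean of the other 2, by 1.10, 0.48 and 0.39 on the log2 scale. Bnip3, an outer membrane mitophagy receptor known as a target of the hypoxia factor HIF-1, was at 320.2 FPKM in si-CIRBP 1 and at 93.8 and 79.8 in the others.

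Beyond the members, 133 other genes of the pathway had a row and 128 were tested, in 7 lists. In CIRBP against NC 33 of them rose and 76 fell (85.2% called), with a median log2 fold change of -0.23, beside 70.7% and -0.083 over all rows. Of all rows 27.9% were called higher and 42.8% lower, and the counts of each list below stand beside these shares. With libraries scaled to 1 median the split was 43 and 62, and by median ratios 42 and 65. In si-CIRBP against si-NC 1 was called higher and 13 lower (10.9%), beside 8.1% of all rows. By limma without single libraries, the number lower was 18 without si-CIRBP 1, 5 without si-NC 2 and 3 without si-NC 1, and fell to 0 without si-NC 3, si-CIRBP 2 or si-CIRBP 3. The effects differed for 36 of the 128 (28.1%, 6 higher and 30 lower), beside 17.8% of all rows. The lists were chosen with earlier results of these data known.

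The vacuolar proton pump, or V-ATPase, acidifies the lysosome, and 14 of its 16 subunit genes fell in CIRBP while 1 rose, with 13 and 2 under either other scaling. As deposited, 42.8% of all rows were called lower and 27.9% higher. The median log2 fold change of the 16 was -0.45. Atp6v1d, of the rotor stalk, fell from 192 ± 7.81 to 86.9 ± 2.62 FPKM (SD, n = 3), a log2 fold change of -1.13 (SE 0.037, adjusted p = 2.22e-06). Atp6v0b, of the membrane ring, changed by -1.07 (SE 0.055, adjusted p = 9.64e-06), and Atp6v1b2, of the catalytic head, by -1.03 (SE 0.023, adjusted p = 9.63e-07). In si-CIRBP limma called none of the 16 lower (2 had an unadjusted p under 0.05) and Atp6v0e1, a small membrane subunit, was called higher with a log2 fold change of 0.38 (SE 0.064, adjusted p = 0.0252). The difference of effects was called for 9 of 16, all lower in the CIRBP arm, beside 10.9% of all rows called lower. Among the 9 was Atp6v1d, with a difference of -0.88 (SE 0.092, limma adjusted p = 0.000339).

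Genes of mTORC1 and its control at the lysosome, which senses amino acids and holds TFEB inactive, fell in 16 of 22 cases and rose in 3, or 15 and 6 under either other scaling. Among all rows 42.8% were called lower and 27.9% higher as deposited. Rragc, a Rag GTPase, went from 133 ± 1.86 to 43.0 ± 0.379 FPKM, with a log2 fold change of -1.61 (SE 0.019, adjusted p = 2.48e-07). Flcn, the folliculin activator of that GTPase, went from 20.4 ± 1.31 to 6.47 ± 0.485 FPKM, with a log2 fold change of -1.52 (SE 0.067, adjusted p = 5.44e-06). Tsc1, a subunit of the complex that restrains mTORC1, went from 16.3 ± 0.371 to 6.88 ± 0.210, with a log2 fold change of -1.13 (SE 0.038, adjusted p = 2.38e-06). All 3 were also lower in si-CIRBP than in si-NC: Rragc had a log2 fold change of -0.63 (SE 0.10, adjusted p = 0.0226), Flcn -0.60 (SE 0.097, adjusted p = 0.0222) and Tsc1 -0.51 (SE 0.10, adjusted p = 0.0364). Fnip2, a folliculin partner, was the fourth gene called lower there, with a log2 fold change of -0.46 (SE 0.084, adjusted p = 0.0304). The CIRBP effects were more negative than the si-CIRBP effects for Rragc (-0.98, SE 0.10, adjusted p = 0.000347), Flcn (-0.92, SE 0.11, adjusted p = 0.000712) and Tsc1 (-0.62, SE 0.099, adjusted p = 0.00261).

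Other lysosomal membrane genes fell in 10 of 18 cases and rose in 3 in CIRBP, where 42.8% of all rows were called lower and 27.9% higher. Under 1 median 8 of the 18 rose and 10 fell. Tpcn2, a calcium and sodium channel, changed by -1.54 (SE 0.076, adjusted p = 8.14e-06) and Clcn7, the chloride and proton exchanger, by -1.499 (SE 0.046, adjusted p = 1.83e-06). Cd63, a tetraspanin of late endosomes, fell from 713 ± 46.7 to 371 ± 28.3 FPKM, with a log2 fold change of -0.94 (SE 0.071, adjusted p = 4.64e-05). In si-CIRBP Clcn7 (-0.70, SE 0.089, adjusted p = 0.0129), Tmem192 (-0.54, SE 0.083, adjusted p = 0.0199) and the cystine exporter Ctns (-0.50, SE 0.095, adjusted p = 0.0325) were called lower.

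Other hydrolases and their cofactors were the list with more rises than falls in CIRBP, 17 against 11 of 31 and 17 against 8 or 9 under the other scalings. As deposited, 27.9% of all rows were called higher and 42.8% lower. Arsa, the arylsulfatase A that acts on sulfatide, rose by 0.71 (SE 0.042, adjusted p = 1.69e-05), and Glb1, the beta-galactosidase read as a senescence marker, by 0.60 (SE 0.020, adjusted p = 2.17e-06). Neu1, the sialidase that Ctsa protects, fell with a log2 fold change of -0.96 (SE 0.057, adjusted p = 1.68e-05). In si-CIRBP 3 were called lower, Idua (-0.55, SE 0.083, adjusted p = 0.0195), Arsb (-0.47, SE 0.096, adjusted p = 0.0402) and Aga (-0.42, SE 0.096, adjusted p = 0.0499), all enzymes of glycan breakdown.

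Of 19 other core autophagy genes 14 fell and 2 rose in CIRBP, or 7 and 2 with libraries scaled to 1 median. Over all rows 42.8% were called lower and 27.9% higher as deposited. Vamp8, a SNARE of fusion with the lysosome, fell from 154 ± 12.1 to 82.4 ± 7.99 FPKM, with a log2 fold change of -0.89 (SE 0.083, adjusted p = 0.000119). Snap29, another SNARE of that step, had a log2 fold change of -0.49 (SE 0.044, adjusted p = 0.000104), and Atg2b, the paralogue of Atg2a, had a log2 fold change of -0.57 (SE 0.046, adjusted p = 6.34e-05). By limma none of the 19 was called in si-CIRBP against si-NC, where 4 of them had an unadjusted p under 0.05.

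Other cargo receptors and mitophagy genes gave 4 higher and 6 lower of 12 in CIRBP. Tex264, a receptor for the endoplasmic reticulum, fell from 123 ± 5.06 to 50.5 ± 2.16 FPKM, with a log2 fold change of -1.27 (SE 0.043, adjusted p = 2.39e-06), and was also lower in si-CIRBP than in si-NC with a log2 fold change of -0.56 (SE 0.091, adjusted p = 0.0231), as was Sec62 with a log2 fold change of -0.31 (SE 0.070, adjusted p = 0.0468). Bnip3 and Bnip3l, paired mitophagy receptors, rose. Bnip3 went from 47.0 ± 4.41 to 95.7 ± 8.86 FPKM, with a log2 fold change of 1.01 (SE 0.088, adjusted p = 8.85e-05), which missed the threshold in the fit of all 12 libraries (adjusted p = 0.051), and Bnip3l changed by 0.59 (SE 0.030, adjusted p = 8.6e-06). Fundc2 and Phb2 of the same list fell in CIRBP, with log2 fold changes of -0.19 (SE 0.025, adjusted p = 0.000679) and -0.41 (SE 0.032, adjusted p = 5.24e-05).

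Enzyme sorting genes, which tag hydrolases and carry them to the lysosome, gave 3 higher and 5 lower of 10. Vps35, of the retromer that recycles the sorting receptors, fell from 134 ± 0.817 to 70.7 ± 0.747 FPKM, with a log2 fold change of -0.91 (SE 0.017, adjusted p = 6.37e-07), and Nagpa, the uncovering enzyme of the mannose 6-phosphate tag, changed by -0.69 (SE 0.060, adjusted p = 8.64e-05). Igf2r, the receptor for that tag, rose by 0.53 (SE 0.043, adjusted p = 6.34e-05). Gnptg, a subunit of the tagging enzyme, was the gene called lower in si-CIRBP, with a log2 fold change of -0.38 (SE 0.070, adjusted p = 0.0312).

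**Figure D5:**
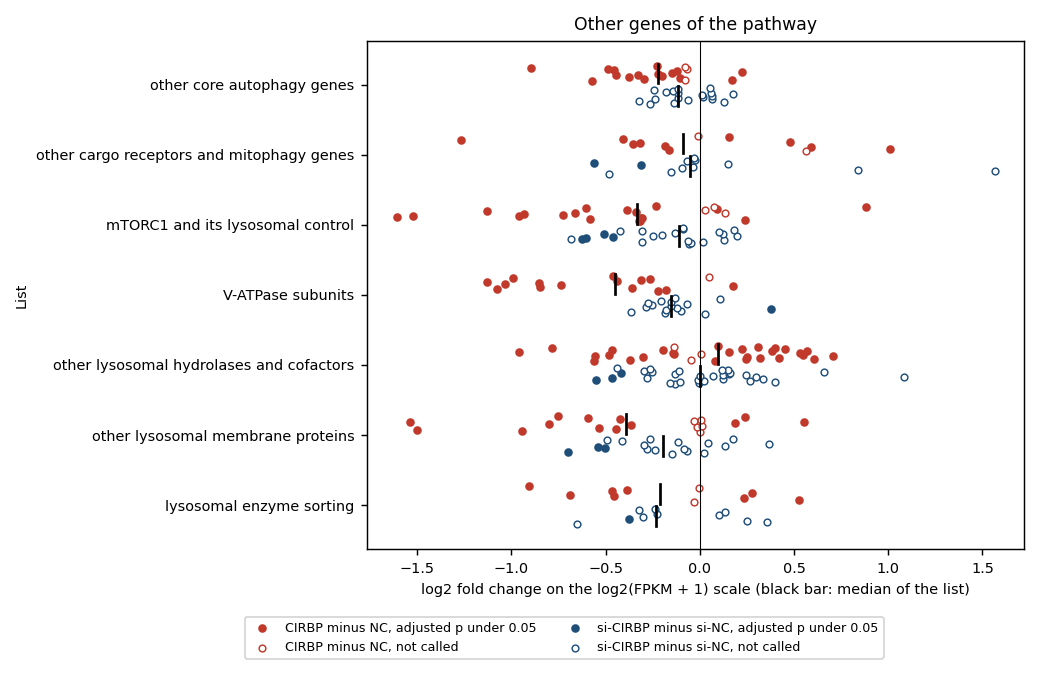
Log2 fold changes of the 128 tested genes of 7 other pathway lists in CIRBP against NC (red) and si-CIRBP against si-NC (blue), filled where the adjusted p is under 0.05, with a black bar at the median of each list. In red the V-ATPase and mTORC1 lists lie mostly left of 0 and the hydrolases on both sides, and few blue points are filled.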

How the data were processed

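Gene expression was measured in 12 poly-A RNA libraries, 3 in each of 4 groups taken from the titles. The values are FPKM that the authors computed, per the file headers, 1 per gene in each library, and no counts were used. Per the submitters' processing notes the tools were Bowtie2 2.3.3.1 and Cufflinks 2.2.1; the notes also list mouse builds (mm10, GRCm38) with no stated use, while the identifiers are rat Ensembl identifiers. The sources used here give no alignment build, strand setting or rule for shared reads, and reads of overlapping or near-identical genes may be split between them.

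Under R 4.3.3, limma 3.58.1 was run with a trended eBayes step on log2(FPKM + 1) of the 14257 rows that reached 1 FPKM in no fewer than 3 libraries. Each comparison was fitted on its own 6 libraries, because the groups differ in spread, and the difference between the effects on all 12. P-values are two-sided with Benjamini-Hochberg adjustment across the rows tested. A fold change on this scale understates the change of low genes. On simulated data with 200 genes changed by 1 on the log2 scale, the fit on 6 libraries recovered 94% (CIRBP against NC), 76% (si-CIRBP against si-NC) and 79.5% (si-NC against NC), and unchanged genes made up 9.18%, 16.5% and 20.5% of calls. A fit of all 12 gave 6.84%, 64.2% and 40.1%. The test of the difference recovered 76.5%, and unchanged genes made up 35.4% of its calls. Far more rows were called in the data than in the simulations, so these shares do not carry over to the calls reported here.

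The members, the lists of other pathway genes and of cell type markers, and the rules were chosen with earlier results of these data known. All members are named. Those called in a comparison with a log2 fold change of 0.5 or more in size are given in every library, and for other lists up to 3 called genes with the largest change and a mean of at least 5 FPKM in the higher group. Bnip3 in the si libraries, Fundc2, Phb2 and Fnip2 were named after their values were seen. So were the markers Actc1, Smtn, Acta2, Tagln, Tnnt2, Tnnc1, Nkx2-5, Myod1, Myog, S100b, Aldoc, Slc1a2 and Aldh1l1. Apart from zeros, no library pair shared values. Depth is unknown, so no counting intervals are given. Promoter sequences are from RefSeq, build GRCr8. Alternatives were the pseudocount (0.1 and 0.5), no filter, 2 scalings of libraries, no trend, a replicate block, the fit of all 12 libraries, a variance factor per group for the difference, and each library left out.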

Additional observations from a re-analysis of the deposited data

Results flagged for a closer look

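For 7 members the effect of CIRBP against NC differed from that of si-CIRBP against si-NC in the test of the difference itself (limma on all 12 libraries). In simulated data with 200 changed genes, unchanged genes made up 35.4% of the calls of this test. The difference on the log2 scale was 0.49 for Ulk2, 0.27 for Rb1cc1, -0.40 for Uvrag, -0.54 for Gabarap, -0.60 for Optn, -0.52 for Mcoln1 and -0.67 for Npc1. Ulk2 rose in the CIRBP arm and was not called in the other. Rb1cc1 and Mcoln1 fell in both arms, by different amounts. Uvrag, Gabarap, Optn and Npc1 fell in the CIRBP arm and were not called in the other. In the libraries labelled si-CIRBP, Cirbp mRNA was not below si-NC, and the si groups spread more than NC and CIRBP, whose part in these differences was not tested.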

How the results depend on the processing

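In CIRBP against NC, calls of members changed mainly with the scaling of libraries. In place of 11, 18 members (1 median) or 17 (median ratios) were called higher, and 5 in place of 3 were higher by at least 0.5 (1 median). Ctsa (0.14 and 0.12) and Ctsb (0.15 and 0.13) changed sign and were called higher under both scalings. Hexa (0.055 and 0.031), Pik3c3 (0.033 and 0.011) and Atg2a (0.074 and 0.053) changed sign too but were called under neither scaling. The fit of all 12 libraries called 7 members higher. In si-CIRBP against si-NC, 1 median gave 618 rows higher and 570 lower, 3 members lower, and 2 other pathway genes higher and 7 lower. Median ratios gave 465 rows higher and 8 other pathway genes lower. The fit of all 12 gave 1294 and 2924 rows, 2 and 12 members, and 10 and 35 other pathway genes. In si-NC against NC, members higher numbered 1 without the filter and 0 without the trend, and members lower 7 with 1 median. A variance factor per group left 1 member higher for the difference.

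With 1 library left out, si-CIRBP against si-NC gave 6 to 510 rows higher and 69 to 1379 lower, 0 to 8 members lower, and 0 to 4 and 0 to 18 other pathway genes. In si-NC against NC these were 367 to 2584 and 902 to 4449 rows, 0 to 9 and 1 to 14 members, and 3 to 34 and 5 to 40 other pathway genes. For the difference they were 599 to 1827 and 997 to 2676 rows, 1 to 4 and 4 to 8 members, and 5 to 16 other pathway genes higher. In CIRBP against NC members called stayed at 10 to 12 higher and 20 to 21 lower. A left-out library leaves an arm of 2.

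In CIRBP and NC, deviations of same-numbered libraries correlated weakly, at 0.0965, 0.0482 and 0.0995, each best with its own number. Those of different numbers correlated at -0.083 to -0.00817, all negative. Deviations from a group mean cancel out, so positive values for same-numbered pairs force negative values among the others. In the si groups same-numbered libraries correlated at 0.0142, -0.0898 and 0.0405, and different numbers reached 0.0921. The labels do not say what a shared number marks. With the number as a replicate block, CIRBP against NC had 12 members higher and 21 lower. In si-CIRBP against si-NC it gave 15 rows higher and 85 lower, 0 members lower, and 0 other pathway genes in either direction. In si-NC against NC it gave 807 and 1777 rows, 0 and 5 members, and 14 other pathway genes lower, and for the difference 1 member higher.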
